A study of Mus musculus with 8 samples.

Results

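The 5 medulloblastoma libraries of the series, TAM 1 to TAM 5, are described here across genes. They were chosen by their sample titles, as all the TAM libraries among 8 RNA-seq libraries, and the libraries of normal microglia are not analysed here. TAMs are tumor-associated microglia and macrophages, the myeloid cells that live in or move into a brain tumor. All were bulk libraries of cells from C57BL/6 mice with medulloblastoma, a tumor of the cerebellum. Mice were 68, 90, 61, 66 and 62 days old for TAM 1 to TAM 5, so TAM 2 came from the oldest animal. Tumors were digested with papain and cleared of myelin, cells were captured with magnetic beads against CD11b, and RNA was extracted with Trizol. CD11b, encoded by Itgam, sits on microglia, macrophages, monocytes and granulocytes, so a library can hold all of these. The tumor model, the sex of the mice and any pooling are not given in the labels used here. The libraries were labelled as separate samples. Their 5 ages all differ, so they came from different animals. Whether each held 1 tumor or a pool is not stated, and the spread between them may still be partly technical.

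Brain macrophages follow several well-known gene programs. Resting microglia express P2ry12, Tmem119 and the transcription factor Sall1. Around damaged or dying cells microglia lower those genes and express Apoe, Cst7, Spp1, Gpnmb and Axl, which serve lipid transport, lysosomal digestion and uptake of dead cells. Macrophages that come from blood monocytes carry Ccr2, Vim, Lgals3 and S100 genes, while macrophages at the borders of the brain carry Mrc1 and Pf4. Interferons, which cells release on sensing nucleic acid, act through a factor that holds STAT2 and IRF9 on a shared set of antiviral genes. In bulk RNA fewer cells of a type and less RNA per cell cannot be told apart.

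The deposited values were TPM, transcripts per 1000000, a level per unit of transcript length. Values given as 5 numbers stand in the order TAM 1 to TAM 5. The table listed 38026 genes. Protein-coding genes numbered 21662, of which 11526 had a mean of at least 1 TPM over the 5 libraries. Coding genes took 67.4% to 78.0% of TPM, lowest in TAM 1 and highest in TAM 5. The 3 features Mir6236, Mir6240 and Gm15662 together took 13.6% (TAM 5) to 25.6% (TAM 1). The median deviation of the coding genes from their own mean was 0.24 in TAM 5 and -0.13 to -0.03 in the others on the log2(TPM + 1) scale, so most genes were listed a little higher in TAM 5. Counts of list members are therefore set beside the share of all coding genes, and a second scale, TPM divided by each library's median ratio, is given where it moved a list's count by over 1.5 times or changed the library that held most of the list. Read depth cannot be read from TPM and is unknown.

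The library in which interferon genes were highest was TAM 1, and the sequences of 4 of their promoters are shown first because they carry the element that interferon-activated factors bind. RefSeq promoters of build GRCm38.p6 were matched for 28 of the 39 interferon response genes measured. Searched were the 250 bases before the start site for the core of the interferon-stimulated response element, GAAA, any 2 bases and GAAA again, on both strands and with overlaps allowed. It was found for 14 of the 28 genes (50%), against 545 of 15825 coding genes (3.44%) and 305 of 8800 with a mean of at least 1 TPM (3.47%). Among other lists it was found for 0 of 21 resting microglia genes, 3 of 26 monocyte-derived genes and 3 of 16 MHC class I genes. Isg15 encodes a ubiquitin-like protein joined to other proteins during infection (chr4:156200819-156201068, minus strand). Ifit3 encodes an antiviral RNA-binding complex member (chr19:34583279-34583528, plus strand), Bst2 encodes tetherin, which holds virus particles on the cell (chr8:71537473-71537722, minus strand), and Cxcl10 encodes a chemokine for T cells (chr5:92348890-92349139, minus strand). The sequences are 5′ to 3′ along the gene, with matches in capitals. Those of Ifit3 are on the opposite strand and read TTTC, any 2 bases, TTTC. A match describes the letters only.
Isg15: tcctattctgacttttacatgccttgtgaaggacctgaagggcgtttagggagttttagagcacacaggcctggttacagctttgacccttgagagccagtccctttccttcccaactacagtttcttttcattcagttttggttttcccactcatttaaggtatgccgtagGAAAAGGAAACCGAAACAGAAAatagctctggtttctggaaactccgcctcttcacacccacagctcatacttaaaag
Ifit3: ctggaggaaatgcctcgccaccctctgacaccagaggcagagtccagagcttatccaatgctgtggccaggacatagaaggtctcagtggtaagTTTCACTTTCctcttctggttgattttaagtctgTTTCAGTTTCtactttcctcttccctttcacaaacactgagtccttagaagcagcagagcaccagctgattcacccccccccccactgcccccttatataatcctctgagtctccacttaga
Bst2: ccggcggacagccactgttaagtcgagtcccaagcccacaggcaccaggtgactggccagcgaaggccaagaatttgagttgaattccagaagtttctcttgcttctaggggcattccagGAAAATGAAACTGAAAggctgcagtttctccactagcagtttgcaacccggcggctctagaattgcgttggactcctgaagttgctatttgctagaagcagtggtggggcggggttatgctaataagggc
Cxcl10: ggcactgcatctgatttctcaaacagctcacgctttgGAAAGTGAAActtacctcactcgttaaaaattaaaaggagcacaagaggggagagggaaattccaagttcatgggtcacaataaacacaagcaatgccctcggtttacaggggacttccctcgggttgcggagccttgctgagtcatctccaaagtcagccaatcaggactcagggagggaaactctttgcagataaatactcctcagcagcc

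Among coding genes Apoe led all 5 libraries, and the lysosome gene Ctsd was within the first 4 in each. Apoe, which encodes the lipid carrier apolipoprotein E (chr7:19696109-19699166 on mm10), was 49356, 54386, 62994, 55907 and 76939 TPM, with a mean of 59916 ± 10694 (SD, n = 5). It ranked first among coding genes in every library and alone took 7.34% to 9.91% of coding TPM. The features Mir6236 and Gm15662, which are not coding genes, stood above it in TAM 1 to TAM 4. Ctsd, the lysosomal protease cathepsin D, was 23416, 7777, 24546, 25646 and 18789 TPM. Ctsd ranked second among coding genes in TAM 1, 3, 4 and 5. It had rank 4 in TAM 2, where its level was much lower. The 20 most abundant coding genes together took 23% (TAM 2) to 27.9% (TAM 3) of coding TPM, and the 100 most abundant took 39.7% to 44.8%.

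The other genes of the top 20 fell into a few roles. Ftl1 and Fth1 encode the ferritin chains that store iron, Lyz2 encodes lysozyme and Tmsb4x an actin-binding peptide. C1qa, C1qb and C1qc encode the 3 chains of complement C1q, and C1qa was 7630, 4018, 6511, 9359 and 5688 TPM. Ctsb and Ctss (cathepsins), Psap (the precursor of lipid-degrading activators), Cst3 (a cathepsin inhibitor), B2m (the light chain of MHC class I) and Sepp1 (a selenium carrier) were also among them. The remaining 5 were genes of the mitochondrial genome. TAM 2 had the lowest level of the 5 libraries for Ctsd, C1qa, C1qb, C1qc, B2m, Cst3, Psap, Ctss and Ctsb. Ranking by the median instead of the mean kept 19 of the 20.

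**Figure D1:**
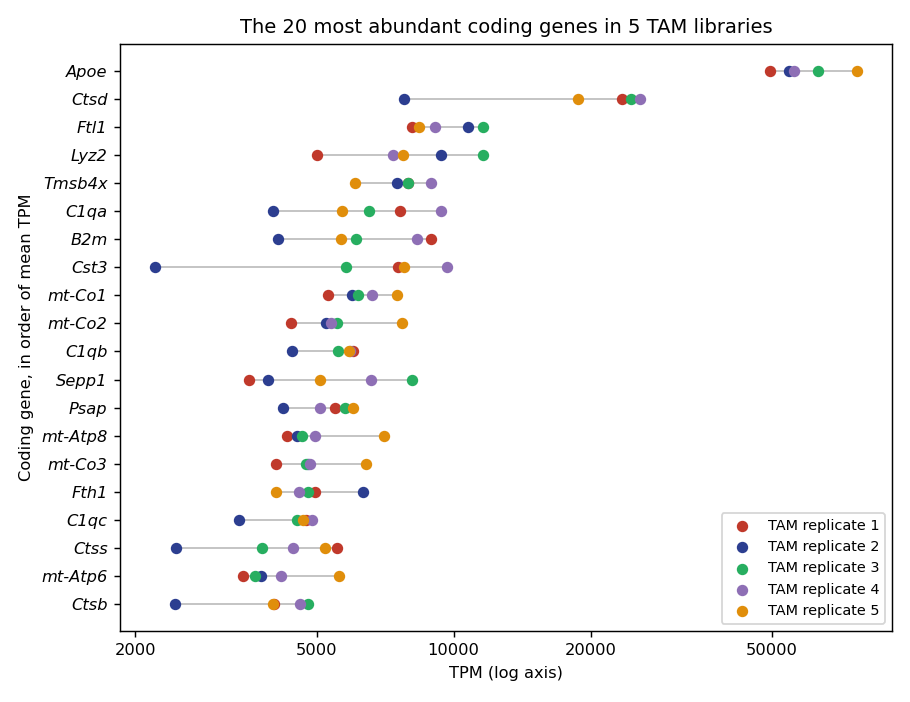
TPM (log axis) of the 20 coding genes of highest mean, one point per library and a grey line from the lowest to the highest. Apoe stands apart at 49356 to 76939 TPM, and the points of TAM 2 lie to the left for Ctsd (7777 TPM) and Cst3 (2214 TPM).

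The 5 genes that mark damage-associated microglia were all expressed but differed in how steady they were. Axl, a receptor for dying cells (chr7:25757273-25788705), was 353, 314, 357, 407 and 403 TPM, a spread of 1.30-fold. Cst7, a cathepsin inhibitor (chr2:150570415-150578944), was 1236, 75.0, 991, 1562 and 912 TPM, which is 20.8-fold between TAM 4 and TAM 2. Without TAM 2 the 4 values lie close together, while TAM 2 ranks Cst7 at 1259 against 50 to 100 in the others. Spp1, which encodes the secreted protein osteopontin (chr5:104435118-104441050), was 388, 1941, 794, 427 and 657 TPM. Gpnmb, a lysosomal membrane protein (chr6:49036546-49070929), was 84.8, 321, 267, 44.4 and 170 TPM. Both were highest in TAM 2, the library lowest in Cst7, so the markers did not move as one.

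Of 31 damage-associated genes measured, 19 were lowest in TAM 2, against 27.8% of all coding genes, and 12 were highest in TAM 4 (9.21%). Spp1, Gpnmb, Lpl, Lgals3 and Ccl6 were the 5 that were highest in TAM 2. Lgals3, which encodes the sugar-binding protein galectin-3, was 167, 497, 257, 182 and 191 TPM. Tyrobp, the signalling partner of the lipid receptor TREM2, was 4300, 2629, 4265, 4700 and 3695 TPM, lowest in TAM 2. Igf1, insulin-like growth factor 1, was 23.7, 113, 177, 94.2 and 149 TPM and thus lowest in TAM 1. Apoc1, another apolipoprotein beside Apoe on the chromosome, was 960, 107, 388, 643 and 1982 TPM, lowest in TAM 2 and highest in TAM 5.

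The cell type check showed myeloid libraries in which most T and natural killer cell genes were low. Ptprc, the leukocyte antigen CD45, was 118, 177, 93.4, 101 and 83.4 TPM, and Itgam, which encodes the CD11b used for capture, was 233, 230, 150, 164 and 176 TPM. The mean of 17 myeloid identity genes lay between 8.84 and 9.03 on the log2(TPM + 1) scale. Of 16 T and natural killer cell genes 4 had a mean of at least 1 TPM, and the sum of all 16 was 33.6 to 112 TPM. Most of it was Cd4, a T cell coreceptor that some myeloid cells also express, at 29.1, 95.5, 104, 24.2 and 80.7 TPM. Cd3e, a T cell receptor subunit, was at most 0.17 TPM, and 4 of 7 mast cell and basophil genes were at 0 in all 5 libraries. Antibody RNA was uneven. Igkc, the kappa light chain constant region, was 261, 28, 591, 42.2 and 53.5 TPM, and Jchain, the joining chain of plasma cells, was 13, 1.34, 35.1, 2.25 and 4.06 TPM. Both were highest in TAM 3 and next in TAM 1.

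Nuclear genes of oxidative phosphorylation and ribosomal protein genes were among the steadier ones. Among 6712 coding genes with a mean of at least 10 TPM, 3416 (50.9%) stayed within 1.5-fold between the lowest and highest library, 5414 (80.7%) within 2-fold, and 356 (5.30%) spread 4-fold or more. Of 30 nuclear genes of oxidative phosphorylation 28 stayed within 1.5-fold, and so did 36 of 44 cytosolic ribosomal protein genes, also on the median-ratio scale. Other genes of energy supply were less steady on TPM, with 3 of 13 genes of the mitochondrial genome and none of 23 glycolysis and hypoxia genes within 1.5-fold. On the median-ratio scale 4035 (60.1%) of all 6712 coding genes stayed within 1.5-fold. There the mitochondrial genome, with 8 of 13 (61.5%), was near that share, and still none of the 23 glycolysis and hypoxia genes stayed within it. Cox4i1, a subunit of cytochrome oxidase, was 453, 484, 503, 465 and 526 TPM. Actb, which encodes beta-actin, was 1970, 2050, 1898, 1993 and 1760 TPM.

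The myeloid programs were less steady. None of 33 interferon genes stayed within 1.5-fold and 20 spread 4-fold or more. For monocyte-derived genes these counts were 1 and 17 of 28, for resting microglia genes 1 and 10 of 28, and for damage-associated genes 1 and 11 of 30. Lipid handling genes had 3 and 7 of 27. On the median-ratio scale 3 damage-associated genes, 6 lipid handling genes and no resting microglia or monocyte-derived gene stayed within 1.5-fold (60.1% of all coding genes). The lysosome list was steadier, with 9 of 38 within 1.5-fold and 1, Atp6v0c, past 4-fold. Cell division genes had 4 of 28 within 1.5-fold and none of 28 past 4-fold. The single steadiest genes depended on the scale. On TPM they began with Tbca, a tubulin folding factor, at 157, 160, 162, 162 and 161 TPM, and none of the steadiest 10 was among the steadiest 10 after rescaling, which began with Chtop, Ttyh3 and Hnrnpl.

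**Figure D2:**
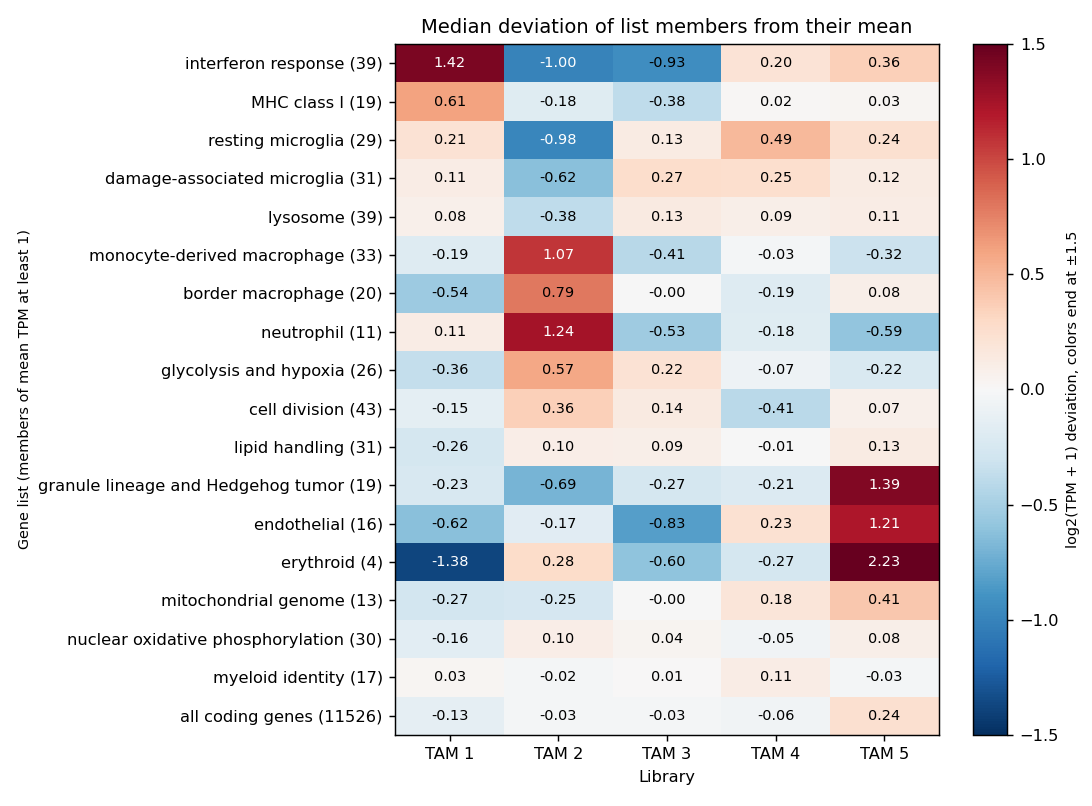
Median over each list's members of log2(TPM + 1) minus the gene's mean (color and printed value), by library, with the number of members in brackets. Interferon genes stand at 1.42 in TAM 1, monocyte-derived genes at 1.07 and resting microglia genes at -0.98 in TAM 2, and granule lineage genes at 1.39 in TAM 5, while all coding genes stay between -0.13 and 0.24.

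Interferon response genes moved together over the libraries. Of 39 members 38 were highest in TAM 1, against 6.11% of all coding genes, and 14 were at least 2-fold above the next library there (0.607%). The exception was Eif2ak2, the RNA-sensing kinase PKR, at 28.8 in TAM 1 and 29.5 TPM in TAM 5. On the median-ratio scale all 39 were highest in TAM 1 (18.1% of all coding genes) and 22 were at least 2-fold above the next (0.833%). The list mean was 6.04, 3.72, 3.82, 4.95 and 5.12 on the log2(TPM + 1) scale. The low end was shared as well. TAM 2 and TAM 3 were the lowest 2 libraries for 36 of 39 members, against 11.4% of all coding genes. The second place depended on the scale. It was held by TAM 5 for 29 and TAM 4 for 8 members on TPM (18.3% and 21.1% of all coding genes), and by TAM 4 for 23 and TAM 5 for 15 on the median-ratio scale (22.6% and 16.0%).

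Individual interferon genes differed in size. Irf7, a transcription factor that amplifies the response, was 230, 17.1, 16.7, 63.7 and 80.6 TPM, or 13.8-fold between TAM 1 and TAM 3. TAM 4 and TAM 5 lay between the extremes. Ifi27l2a, an interferon-induced mitochondrial protein, was 669, 34.5, 63.6, 276 and 185 TPM. Usp18, which removes ISG15 from proteins and restrains the receptor, was 43.2, 1.47, 3.98, 18.2 and 13.4 TPM, at 29.5-fold between TAM 1 and TAM 2. All 3 kept TAM 1 well clear of the next library. For the genes whose promoters are printed above, Isg15 was 169, 26.2, 20.3, 72.9 and 54.3 TPM and Ifit3 was 141, 9.39, 15.4, 47.3 and 68.9 TPM. With its near-identical copy Ifit3 was 165, 10.7, 17.7, 56.4 and 79.7 TPM. Cxcl10 was 245, 31.3, 92.6, 225 and 94.4 TPM, so TAM 4 came close to TAM 1 for it. Bst2 was 819, 438, 515, 422 and 736 TPM, a spread of 1.94-fold, and its promoter holds 2 matches of the core. Ly6e, a surface protein, was 1130, 655, 361, 721 and 489 TPM. Stat2 was 37.0, 12.9, 13.1, 20.6 and 32.1 TPM and Irf9 was 46.6, 21.6, 21.8, 33.2 and 37.1 TPM. Both encode subunits of the factor that binds the core, and both were highest in TAM 1, with nearly equal low values in TAM 2 and TAM 3.

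Antigen presentation by MHC class I went with the interferon genes in TAM 1 only in part. Of 19 members 17 were highest in TAM 1, against 6.11% of all coding genes, but TAM 2 and TAM 3 were the lowest 2 for 7 (11.4%). H2-K1, a classical heavy chain, was 2901, 827, 735, 961 and 454 TPM, whereas H2-D1, the other, was 3027, 1400, 2224, 2184 and 2917 TPM. B2m was 8937, 4105, 6104, 8326 and 5666 TPM. Of the 70 coding genes at least 2-fold above the next library in TAM 1, 18 (25.7%) were in the interferon or MHC class I list, which together hold 58 of all 11526 (0.503%). Others among them were the chemokine gene Ccl5, at 527, 46.8, 44.9, 127 and 126 TPM, and the surface marker Ly6a, at 102, 7.17, 5.02, 20.05 and 19 TPM. TAM 1 also had more Ly6c2 RNA, a marker of inflammatory monocytes, at 77.9, 5.88, 5.64, 20.7 and 3.19 TPM. Ly6c2 has a near-identical copy, and with it the level was 79.0, 7.89, 6.65, 24.4 and 18.9 TPM. Whether those cells took part in the interferon pattern was not tested.

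**Figure D3:**
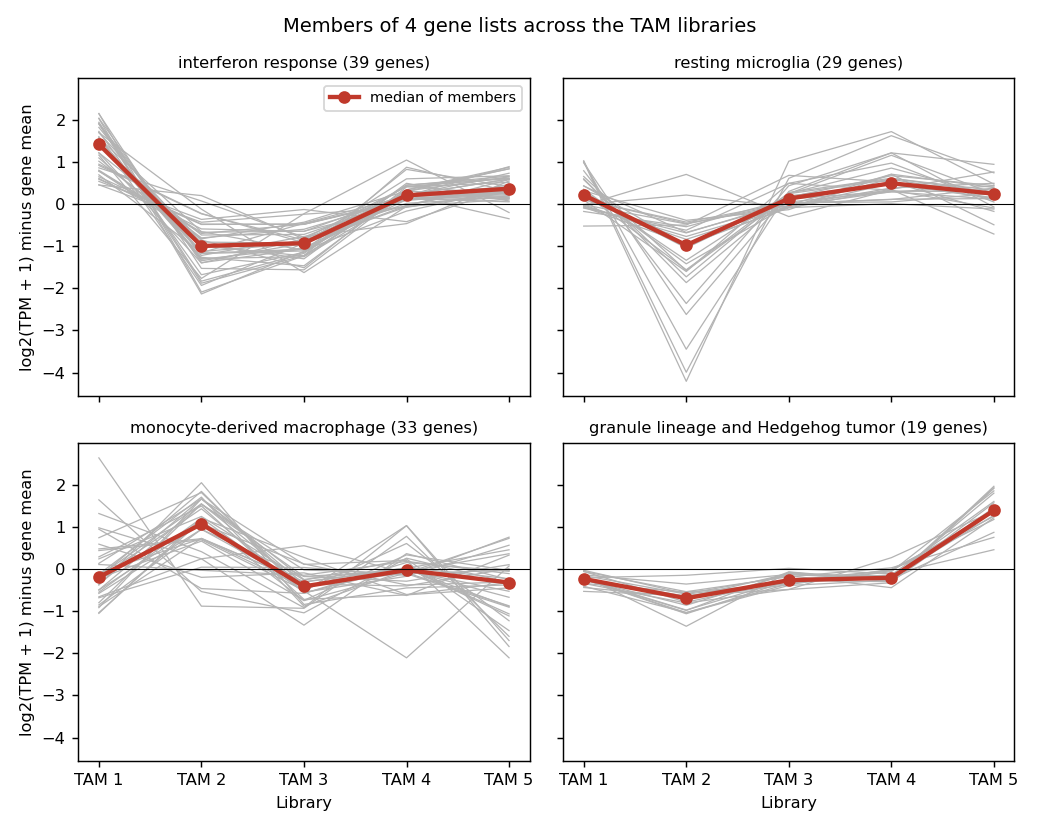
Each grey line is a gene of the list, as log2(TPM + 1) minus its mean over the 5 libraries, and the red line is the median of members. Interferon lines peak in TAM 1 and are low in TAM 2 and TAM 3, resting microglia lines dip in TAM 2, most monocyte-derived lines peak there, and granule lineage lines peak in TAM 5.

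TAM 2 had the least RNA of resting microglia genes. Of 29 members 25 were lowest there, against 27.8% of all coding genes, and 14 were at least 2-fold below the next library (2.16%). On the median-ratio scale these were 26 (28.3% of all coding genes) and 12 (2.03%). The list mean was 7.85, 6.28, 7.73, 8.17 and 7.77. Without TAM 2 its range over libraries shrank from 1.89 to 0.43. Sparc, which encodes a matrix-binding protein, was 1515, 45.7, 1134, 2288 and 1241 TPM, or 50.04-fold between TAM 4 and TAM 2. Serpine2, a protease inhibitor, was 351, 8.47, 353, 575 and 242 TPM, and Sall1 was 58.9, 1.76, 36.0, 68.6 and 56.7 TPM. These 3 genes were low in TAM 2 alone.

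The best-known microglia genes differed by less. P2ry12, the receptor by which microglia sense ADP, was 363, 65.0, 268, 382 and 324 TPM. Tmem119 was 144, 53.5, 101, 150 and 116 TPM. TAM 2 was again the lowest for both. Cx3cr1, the fractalkine receptor, was 603, 366, 604, 814 and 879 TPM. Spi1, which encodes the myeloid factor PU.1, was highest in TAM 2 instead, at 267, 312, 253, 270 and 247 TPM. In the other 4 libraries the list stood highest in TAM 4, which held the top value for 18 of 29 members (9.21% of all coding genes).

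Monocyte-derived genes were the reverse of the resting list in TAM 2. Of 33 members 24 were highest there, against 19.6% of all coding genes, and 12 were at least 2-fold above the next library (1.88%). The list mean was 5.15, 6.07, 4.74, 5.13 and 4.70. Vim, the filament protein vimentin, was 65.1, 395, 96.5, 93.5 and 125 TPM, and S100a4, a calcium-binding protein, was 39.2, 164, 29.9, 46.1 and 20.2 TPM. Ifitm2, a membrane protein against virus entry, was 97.1, 496, 150, 166 and 117 TPM. Ccr2, the receptor that brings monocytes out of the marrow, was 16.1, 48.3, 15.8, 17.0 and 2.62 TPM. It was highest in TAM 2 and lowest in TAM 5. The members highest in TAM 1 were Ly6c2, Itgal, Plac8, Ifitm3, Ms4a4c and Fcgr1, so the list did not move as one block. Lyz2 was highest in TAM 3.

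Other lists were also high in TAM 2. Border macrophage genes were highest there for 15 of 20, against 19.6% of all coding genes. Mrc1, the mannose receptor, was 49.2, 231, 89.0, 81.1 and 105 TPM, and Pf4, a chemokine, was 47.9, 257, 146, 102 and 82.7 TPM. Folr2 went the other way at 189, 116, 238, 185 and 168 TPM. Glycolysis and hypoxia genes were highest in TAM 2 for 15 of 26, against the same 19.6%. Eno1, a glycolytic enzyme, was 129, 526, 295, 337 and 269 TPM, and Vegfa, the vessel growth factor, was 32.5, 102, 29.5, 33.5 and 25 TPM. The Eno1 values are without any copy. Eno1b, which has a near-identical copy, was 91.2, 0.165, 74.8, 0.147 and 0.194 TPM. Arg1, an arginine-degrading enzyme of alternatively activated macrophages, was 1.92, 47.2, 6.66, 1.97 and 28.7 TPM.

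Granulocyte genes were also mostly highest in TAM 2. Of 11 neutrophil genes with a mean of at least 1 TPM 8 were highest in TAM 2 (19.6% of all coding genes), and the summed level of all 15 genes of the list was 338, 678, 375, 380 and 249 TPM. S100a9, a subunit of calprotectin, was 42.7, 245, 102, 90.1 and 24.5 TPM, and Retnlg was 6.67, 132, 10.3, 11.6 and 16.2 TPM. Csf3r, the receptor for granulocyte colony-stimulating factor, was lowest in TAM 2 at 99.4 TPM and 166 to 223 TPM elsewhere. Ly6g, Elane and Mpo, also of the list, were at most 0.794, 0.536 and 0.594 TPM in any library. The part of neutrophils in the TAM 2 values was not tested, and neither was that of age.

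Some of the genes furthest above the other libraries in TAM 2 were nearly absent elsewhere. Others were not, such as the complement gene Cfp at 46.1, 334, 39.7, 43.6 and 31.1 TPM. Car3, a carbonic anhydrase, was 0.134, 234, 0.0822, 0.265 and 1.86 TPM, and Lipg, endothelial lipase, was 0.176, 107, 0.0673, 0.103 and 0.138 TPM. Fcrl5, an Fc receptor-like protein, was 1.87, 92.1, 0.505, 0.326 and 0.0956 TPM. Cd300e, a receptor of monocytes, was 2.95, 105, 0.554, 3.05 and 0.181 TPM, and Fabp4, a fatty acid carrier, was 1.28, 34.5, 2.14, 3.09 and 3.03 TPM. Car3, Lipg and Fcrl5 reached the minimum mean of 1 TPM only through TAM 2, so their place among the genes above is partly fixed by that filter. Of the 11526 coding genes 217 (1.88%) were at least 2-fold above the next library in TAM 2 and 249 (2.16%) at least 2-fold below it. In TAM 1 these counts were 70 (0.607%) and 46 (0.399%), and in TAM 5 they were 206 (1.79%) and 16 (0.139%). On the median-ratio scale TAM 5 had 92 above (0.798%) and 30 below (0.260%), and TAM 1 had 96 and 35. TAM 3 and TAM 4 stood out least, with 3 (0.026%) and 9 (0.0781%) in TAM 3 and 8 (0.0694%) in each direction in TAM 4. With a mean of at least 10 TPM the 2 genes above in TAM 3 were Mdfi and Jchain, and the 4 in TAM 4 were Ccl17, Ch25h, Slc1a3 and Gdpd3.

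Lysosome genes were lower in TAM 2 as a group, and by a smaller amount. Of 39 members 26 were lowest there, against 27.8% of all coding genes, and the list mean was 8.37 against 8.76 to 8.87 in the other 4 libraries. Ctsb was 4037, 2445, 4790, 4608 and 4016 TPM, and Ctsz, another cathepsin, was 3264, 1195, 2936, 3165 and 2174 TPM. Ctsc went the other way, at 527, 704, 445, 304 and 381 TPM. The lysosomal enhancer core TCACGTGA, which the factor TFEB binds, lay in the promoters of 4 of 31 lysosome genes matched (12.9%), against 190 of 15825 coding genes (1.2%) and 162 of 8800 with a mean of at least 1 TPM (1.84%).

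Lipid handling genes showed no single order of libraries. Of 31 members 12 were highest in TAM 5 (58.9% of all coding genes) and 11 in TAM 2 (19.6%), while 14 were lowest in TAM 1 (37%), and the list mean ranged only from 5.91 to 6.31. The share in TAM 5 was thus below that of all coding genes. On the median-ratio scale 12 were highest in TAM 2 (27.3% of all coding genes) and 6 in TAM 5 (26.6%). Fabp5, a fatty acid carrier, was 142, 334, 826, 476 and 589 TPM, lowest in TAM 1 and highest in TAM 3. With its near-identical copy it was 334, 473, 827, 476 and 590 TPM, in the same order of libraries. Lpl, the lipase that frees fatty acids from lipoproteins, was 111, 194, 165, 144 and 97.5 TPM. Npc2, which carries cholesterol out of the lysosome, was 590, 300, 444, 489 and 549 TPM. These 2 genes ran in opposite directions between TAM 1 and TAM 2. Abca1, the exporter of cholesterol to apolipoproteins, was 121, 138, 190, 206 and 219 TPM. Pparg, a fatty acid receptor, was 1.40, 27.2, 3.12, 2.99 and 2.63 TPM, high in TAM 2 only. Genes of cholesterol synthesis were low throughout, with list means of 3.12 to 3.48.

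Cell division genes were present in every library. Of 43 members 30 were highest in TAM 2 (19.6% of all coding genes), 10 in TAM 3 (6.13%) and 35 were lowest in TAM 4 (18.6% of all coding genes). The list mean was 3.78, 4.33, 4.09, 3.56 and 4.03. Top2a, which untangles chromosomes, was 25.9, 39.5, 32.6, 19.0 and 25.9 TPM, and Mki67, the marker of cycling cells, was 10.1, 14.8, 14.4, 7.98 and 17.6 TPM. Pcna, the sliding clamp of DNA synthesis, was 109, 181, 149, 127 and 148 TPM. TAM 4 was thus the library with the highest resting microglia list and the lowest cell division list. Which cells divided cannot be told from bulk RNA, and tumor cells divide as well.

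RNA of the lineage from which tumor cells arise was low and stood out in TAM 5. The list holds genes of the cerebellar granule lineage, from which Hedgehog-driven medulloblastoma grows, and targets of that pathway. Tumor cells and granule cells of the cerebellum cannot be told apart by these genes. Of 32 genes 19 had a mean of at least 1 TPM. All 19 were highest in TAM 5 (58.9% of all coding genes) and 17 were at least 2-fold above the next library (1.79%), or 13 on the median-ratio scale (0.798%). Some, such as Atoh1 and Gli1, reached that mean only through TAM 5, so these counts are partly fixed by the filter. With no filter 31 of the 32 were highest in TAM 5. The summed level of all 32 was 31.4, 15.7, 31.1, 34.7 and 150 TPM, and 18 of the 19 were lowest in TAM 2.

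Transcription factors of the lineage led it. Zic1 was 3.18, 1.71, 3.36, 4.31 and 19.1 TPM, and Barhl1 was 2.80, 0.675, 3.08, 2.48 and 15.2 TPM. Atoh1, the factor that makes granule precursors, was 1.06, 0.238, 1.33, 1.03 and 6.27 TPM. TAM 5 was highest and TAM 2 lowest for all 3. Insm1 was 1.77, 0.591, 1.49, 1.71 and 11.4 TPM. Of the Hedgehog genes, Gli1 was 0.778, 0.162, 0.951, 0.876 and 4.53 TPM and Ptch1 was 0.819, 0.895, 1.12, 0.938 and 1.88 TPM. The order TAM 5 first and TAM 2 last held for most of these genes, at levels far under those of the myeloid genes.

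TAM 5 was also highest in some genes of other tissue cells. With a mean of at least 1 TPM these were 12 of 16 endothelial genes, all 6 neuron genes, all 4 mural cell genes and all 4 erythroid genes, against the same 58.9%. The full lists held 18, 17, 12 and 7 genes. A low gene can reach that mean through TAM 5 itself, so these counts are partly fixed by the filter. For astrocytes 6 of 10 were highest in TAM 5, near the 58.9% of all coding genes, and for oligodendrocytes 0 of 3. On the median-ratio scale these were 5 of 10 and 0 of 3, against 26.6% of all coding genes. Cldn5, the tight junction protein of brain vessels, was 1.5, 4.25, 2.41, 11 and 19.4 TPM, and Hbb-bs, a beta-globin, was 1.5, 6.54, 4.60, 4.91 and 47.3 TPM. The number of coding genes at 1 TPM or more was 12095 in TAM 5 and 11134 to 11199 in the others. What part these cells took in the general upward shift of TAM 5 was not tested. A few macrophage genes were high in it too. Retnla, a secreted protein induced by interleukin-4, was 1.93, 3.51, 3.08, 62.1 and 894 TPM, and Rnase2a, a secreted ribonuclease, was 0.145, 12.2, 2.69, 16.3 and 217 TPM. Of 20 interleukin-4 response genes 4 were highest in TAM 5 (58.9% of all coding genes) and 9 in TAM 2 (19.6%), and the list mean was 3.79, 4.69, 4.01, 4.33 and 4.75. Arg1 was second highest in TAM 5, after TAM 2. The receptor Il4ra was 74.3, 76.0, 79.97, 69.6 and 77.6 TPM.

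MHC class II genes took yet another course. H2-Aa, a chain of the antigen-presenting dimer, was 933, 2437, 1114, 1857 and 1039 TPM, and Cd74, the invariant chain, was 1986, 3838, 1551, 2399 and 2001 TPM, so both were highest in TAM 2. Of 13 members 7 were highest there (19.6% of all coding genes). On the median-ratio scale 5 were highest in TAM 2 (27.3%) and 5 in TAM 1 (18.1%). H2-Eb1, the beta chain of a second dimer, was 811, 851, 12.4, 21.2 and 604 TPM, and was almost missing from TAM 3 and TAM 4 while H2-Aa was not.

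Over all 6712 genes the libraries were summarised by principal components of log2(TPM + 1) centred by gene. The first held 46.9% of the variance and set TAM 2 (score 41.0) apart from the others (-16.2 to -2.47). Its 4 strongest genes at the low end were Serpine2, Sparc, Sall1 and Cd34, and at the high end Car3, Lipg, Fcrl5 and Cd300e. The 4 at the high end reached the minimum mean of 10 TPM only through TAM 2, so their lead is partly fixed by that filter. The second held 28.7% and ran from TAM 1 (-22.8) to TAM 5 (28.3), with Retnla and Rnase2a at the TAM 5 end. Rnase2a reached the minimum mean only through TAM 5. The third held 16.6%, with TAM 3 (14.8) and TAM 4 (14.4) at one end and H2-Eb1 leading the other. Rpl29, which has a near-identical copy, led the TAM 3 and TAM 4 end, and Gdpd3 and Pianp were the first genes there without a copy. Gdpd3, a lysophospholipase, was 3.54, 5.49, 96.8, 199 and 9.17 TPM, and Pianp was 4.07, 27.3, 104, 104 and 51.1 TPM. The fourth held 7.77%, and its high end was led by Eno1b, which has a copy, before Eif2s3y and Ddx3y of the Y chromosome. Genes with copies also led the low end of the second, where Dynlt1b came first.

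**Figure D4:**
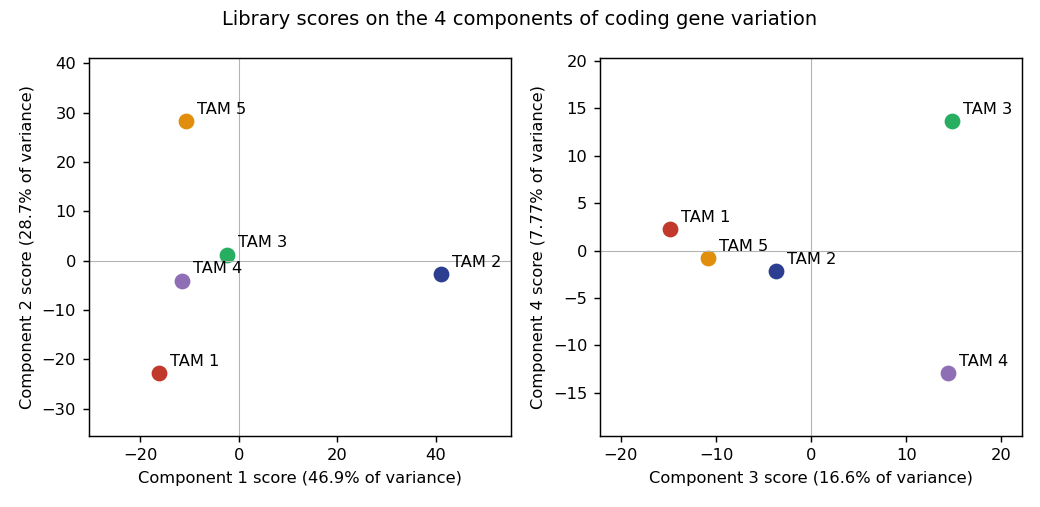
Scores of the 5 libraries on components 1 and 2 (left) and 3 and 4 (right), with the share of variance in the axis labels. TAM 2 lies alone at 41.0 on component 1, TAM 1 and TAM 5 lie at the ends of component 2 (-22.8 and 28.3), and TAM 3 and TAM 4 share the upper end of component 3.

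Correlation of log2(TPM + 1) across the 11526 genes ran from 0.923 (TAM 2 with TAM 5) to 0.981 (TAM 3 with TAM 4), where genes are not independent replicates. The 4 pairs with TAM 2 were 0.923 to 0.9498 and the other 6 were 0.9502 to 0.981. Sex-linked RNA split the libraries. Eif2s3y was 41.3, 0.468, 49.9, 0.722 and 60.9 TPM, while Xist, made by the inactive X chromosome, was 0.217, 77.7, 0.0917, 64.4 and 0.167 TPM. TAM 2 and TAM 4 thus carried Xist and the other 3 carried Y-linked RNA. TAM 2 and TAM 4 lay at opposite ends of the resting microglia list. The part of sex in the differences between libraries was not tested.

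Several abundant genes that seemed to switch off in a library did not once near-identical copies were counted with them. A search among 9850 expressed genes for transcripts of at least 95% identity found 191 families with 441 genes. Of 213 coding genes with such a copy and a mean of at least 10 TPM, 40 (18.8%) spread 4-fold or more, against 316 of 6499 (4.86%) without one. Rpl29, a ribosomal protein, was 3.24, 693, 647, 675 and 4.06 TPM alone and 748, 694, 648, 677 and 866 TPM with its copy. Rps2 was 1092, 1267, 1171, 533 and 13.9 TPM alone and 1094, 1269, 1174, 1081 and 1285 TPM with its copies. Gapdh, the glycolytic enzyme often used as a reference gene, was 1078, 103, 101, 86.7 and 387 TPM alone and 1434, 2386, 2239, 1601 and 1521 TPM summed. The sums of the ribosomal genes were steady, and that of Gapdh was highest in TAM 2, as was Eno1 without copies added. With such genes left out, component 1 held 51.0% of the variance.

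**Figure D5:**
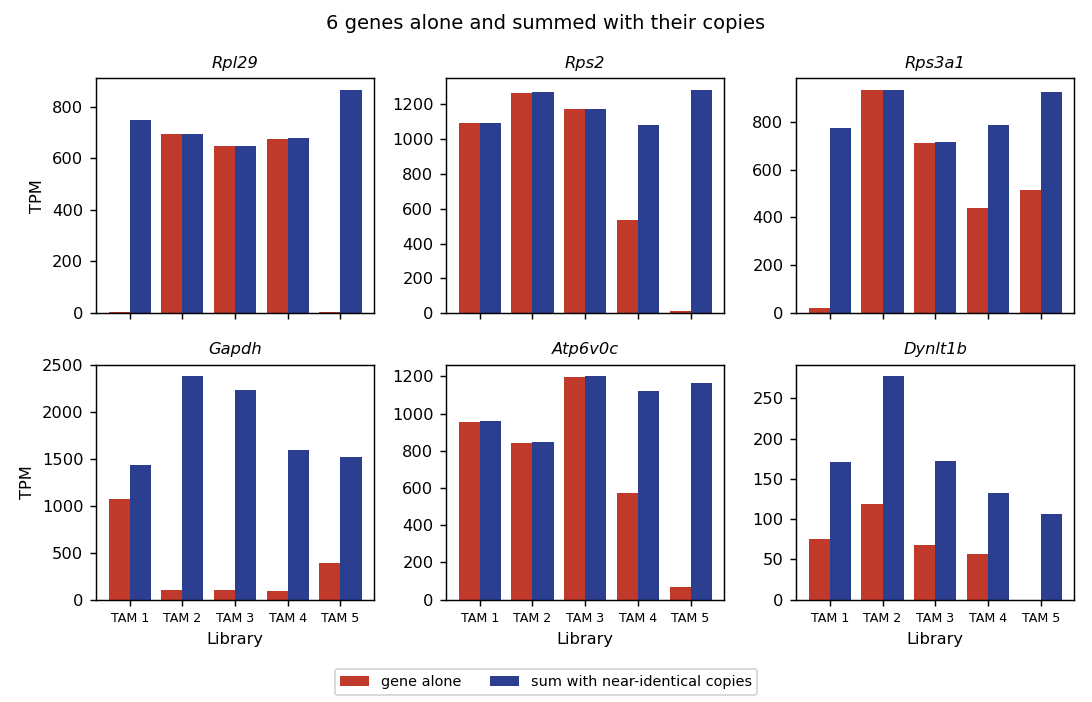
TPM of 6 genes alone (red bars) and summed with their near-identical copies (blue bars) in the 5 libraries. Rpl29 is near 0 alone in TAM 1 (3.24 TPM) and TAM 5 (4.06 TPM), where the sums are 748 and 866 TPM.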

How the data were processed

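RNA-seq values of the 5 TAM libraries were taken from 1 deposited table of 38026 genes. Per the file headers its values are TPM, as the authors deposited them. The submitters' processing notes list mm10, FastQC and DESeq2 with no versions. No aligner, quantifier or annotation release is given in the sources used here. Left out were the columns of normal microglia, the authors' own comparison and 3 columns without a name that hold stray entries. Read depth is unknown, so no counting error can be given.

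Values were described on log2(TPM + 1) with a minimum mean of 1 TPM for lists and 10 TPM for steadiness and components (Python 3.11.15, numpy 2.4.6, pandas 2.3.3). With 1 group there was no test. The 40 lists (791 genes, 6 not matched) and the libraries were chosen with earlier results of these data known. Named genes are the 20 most abundant, the 10 steadiest and 10 most variable with a mean of at least 50 TPM, leading genes of components, and the most abundant and most variable list members. Genes outside that rule (such as Irf7, Isg15 and Ifit3) were chosen after their values were seen. Copies were found with blastn 2.17.0 (at least 95% identity over 80% of the shorter transcript and 150 bases). That search and the counts at 2-fold on the median-ratio scale were added after seeing the data. The code was tested on simulated data. Alternatives were the scale, the pseudocount, the filters, the spread measure, the copies and leaving out each library. Some genes are not reported here.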

Additional observations from a re-analysis of the deposited data

Results flagged for a closer look

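Of 138 coding genes named in the text and 39 lists, 33 genes and 3 lists had 1 library far from the other 4, with a gap to the nearest of them of more than 0.71 of the whole range. Many of these genes were named for their spread or after their values were seen, which raises the number flagged. Chance flags about 1 in 20 groups of 5. Over all 11526 coding genes the share was 10.3%, and 721 of those 1184 genes had TAM 5 above, 183 TAM 2 below and 137 TAM 2 above.

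TAM 2 lay far below the others for 12 genes. These were the top-ranked Ctsd (7777 TPM), C1qb (4419 TPM), C1qc (3377 TPM) and Ctsb (2445 TPM), the microglia genes Serpine2 (8.47 TPM), Sparc (45.7 TPM), Sall1 (1.76 TPM), Siglech (6.99 TPM) and P2ry12 (65.0 TPM), and Cst7 (75.0 TPM), Cd34 (5.90 TPM) and Timp2 (389 TPM). The mean log2 level of the resting microglia list (6.28) and of the lysosome list (8.37) was far below in TAM 2 as well.

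TAM 2 lay far above the others for Car3 (234 TPM), Lipg (107 TPM), Fcrl5 (92.1 TPM), Cd300e (105 TPM), Klra17 (84.9 TPM), Clec4b1 (74.3 TPM), Retnlg (132 TPM), Cfp (334 TPM), Fabp4 (34.5 TPM), Pparg (27.2 TPM), Vegfa (102 TPM) and Cd79b (55.2 TPM). Cfp encodes properdin, which stabilises complement, and Clec4b1 a lectin of myeloid cells.

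TAM 5 lay far above for Insm1 (11.4 TPM), for Ttyh3 (118 TPM) and Hnrnpl (200.4 TPM), which were among the steadiest after rescaling, and for the granule lineage list (mean log2 level 2.86), and far below for Fcer1g (1181 TPM). It was also far below for Rps2 (13.9 TPM), Dynlt1b (0 TPM) and Atp6v0c (70.1 TPM), and TAM 1 for Rps3a1 (22.6 TPM). The last 4 genes have near-identical copies, and their sums in the same library were 1285, 106, 1164 and 774 TPM. TAM 3 was below for Cct7 (49.9 TPM), whose whole spread was 1.04-fold.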

How the results depend on the processing

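Of the values recomputed for lists, steadiness, components and ranks, 321 stayed and 43 moved, and of the mean levels of single genes 919 stayed and 47 moved. Rescaling by the median ratio turned the sign of 32 of 195 median deviations of lists, 16 of them in TAM 5. The sign turned with at least 0.1 on both scales for 6, all in TAM 5: ribosomal protein (0.15 to -0.11), lipid handling (0.13 to -0.14), damage-associated (0.12 to -0.14), lysosome (0.11 to -0.15), early response (0.15 to -0.11) and interleukin-4 response (0.14 to -0.11). No paired analysis was possible because there is 1 group and no test. Leaving out 1 library at a time moved the range of a list mean over libraries as follows: MHC class I 0.82 to 1.47 (1.47 with all 5), resting microglia 0.43 to 1.89 (1.89), damage-associated 0.32 to 0.81 (0.81), lysosome 0.10 to 0.50 (0.50), monocyte-derived 0.45 to 1.37 (1.37), border macrophage 0.59 to 1.23 (1.23), neutrophil 0.55 to 1.77 (1.77), glycolysis and hypoxia 0.39 to 0.81 (0.81), ribosomal protein 0.11 to 0.27 (0.27), granule lineage 0.59 to 2.15 (2.15), endothelial 1.08 to 1.83 (1.83) and erythroid 1.59 to 3.58 (3.58). The low values came without TAM 1 for MHC class I, without TAM 5 for the last 3 and without TAM 2 for the rest. Without TAM 2 only 147 genes spread 4-fold or more (356 with all 5, at most 338 in the other runs). Component 1 held 51.5% to 63.0% and component 2 26.2% to 33.1% of the variance, since 4 libraries leave fewer components, and 5 to 6 of the steadiest 10 genes were kept.

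Rescaling by the median ratio left 4 mitochondrial genome genes highest in TAM 5 (11 on TPM), 16 ribosomal protein genes lowest in TAM 3 (31 on TPM, 17 without copies) and a ribosomal range of 0.45 (0.27). It put component 2 at 24%, and rescaling to coding genes at 23.9%. Both shared 0 of the steadiest 10. The coefficient of variation shared 3 of the 10 most variable. A minimum mean of 5 TPM left 4 neutrophil genes highest in TAM 2 (8), and 1 granule lineage (19) and 3 endothelial genes (12) highest in TAM 5, as fewer were counted. No minimum gave 31 granule lineage genes and an erythroid range of 2.12. A pseudocount of 0.1 gave a granule lineage range of 3.21. A minimum of 1 TPM gave 1331 genes with a 4-fold spread and put component 2 at 32.8%. Without copies 2 erythroid genes were highest in TAM 5 (4). The causes of these shifts were not tested, beside fewer genes or libraries. Unknown depth limits every low value, above all the granule lineage genes of 1 to 5 TPM.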

Other observations

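Complement genes showed no single order of libraries. Of 19 members 8 were lowest in TAM 2 (27.8% of all coding genes), C1qa, C1qb, C1qc and C3 among them. Another 6 were lowest in TAM 3 (11.5%). C3, the central component, was 99.7, 16.8, 23.7, 31.4 and 39.8 TPM, and Cfb, factor B, was 126, 21.0, 17.1, 70.9 and 27.2 TPM, so both were highest in TAM 1 like the interferon genes. C4b was 156, 34.6, 15.4, 69.2 and 76.0 TPM. Cfp, properdin, was 46.1, 334, 39.7, 43.6 and 31.1 TPM, highest in TAM 2.

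Of 14 heat shock and stress genes 6 were highest in TAM 2 (19.6% of all coding genes) and 5 in TAM 3 (6.13%). Among the 6 in TAM 2, Hmox1, the heme-degrading enzyme, was 194, 853, 428, 292 and 301 TPM, and Hspa1b, an inducible heat shock protein, was 333, 1096, 601, 497 and 338 TPM. The constitutive chaperone gene Hsp90ab1 was steadier, at 478, 544, 499, 477 and 520 TPM. The inflammatory cytokine gene Il1b was 405, 344, 220, 310 and 219 TPM, and the cytokine gene Tnf was 127, 69.3, 106, 156 and 107 TPM, lowest in TAM 2.

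Ifi202b, an interferon-inducible DNA sensor, was 0.154, 96.0, 11.6, 43.0 and 60.2 TPM and so was nearly absent from TAM 1, the library highest in the interferon list. H2-T23, a nonclassical class I gene, was 520, 80.5, 6.26, 313 and 9.61 TPM, and summed with its near-identical copies still 522, 84.7, 11.5, 315 and 17.7 TPM.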
